A study of Mus musculus with 8 samples.

Results

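The 10 genes followed here across genotype and time are transcription factors that divide the ventral neural tube into progenitor domains, namely Olig1, Olig2, Nkx6-1, Nkx6-2, Nkx2-2, Pax6, Irx3, Dbx1, Dbx2 and Sox1. They were found as the array probes whose RefSeq accession pairs with one of these symbols, whatever their values. This gave 10 of the 24633 genes tested and 13 of the 55681 probes on the array. Of the 13 probes, 12 stood well above background in some group on both of its arrays. The exception was 1 of the 2 probes of Pax6, which was not well above background on any of the 8 arrays. Nkx2-2 and Sox1 had 2 usable probes each, and every other gene had 1. All 10 genes therefore passed the filter on dim probes, Dbx2 only through the 2 knockout groups.

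The cells were motor neurons made from male mouse embryonic stem cells whose titles name an Hb9-GFP line, a reporter that marks motor neurons in green. Embryoid bodies received retinoic acid and Sonic hedgehog (Shh) from day 2 to day 5, were dissociated on day 5, and were then kept with the growth factor GDNF until sampling, in all 4 groups alike. Control cells and cells with a Litchi knockout were each sampled on day 7 and on day 9, which makes 4 groups of 2 arrays. The labels do not give the knockout allele, the number of clones, or whether replicates are separate cultures. The p-values therefore rest on a spread between samples that may be technical only. Total RNA was measured on 1-colour Agilent arrays, all 8 on 1 slide and read in 1 scan.

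In the embryonic spinal cord, Shh from the floor plate represses one set of homeodomain proteins, the class I factors such as Pax6, Irx3, Dbx1 and Dbx2, and induces another, the class II factors such as Nkx2-2, Nkx6-1 and Nkx6-2. Neighbouring factors repress each other in pairs, which sharpens the borders between domains. Olig2, with its relative Olig1, marks the domain that makes motor neurons and later oligodendrocyte precursors, and both are shut off as a progenitor becomes a motor neuron. Sox1 is kept on in dividing neural progenitors of every domain.

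Brightness differed between arrays, with a 75th percentile from 649 to 1691 intensity units. The share of spots well above background was 55.9% to 67.9%, and the number of arrays limits the precision. Across genes, Pearson's r was 0.9895 to 0.994 within groups and 0.9617 to 0.9879 between groups. Litchi was found 0 times among the gene names and synonyms, so the targeted gene was not checked against the labels. The labelled cell type was set against its markers. All 12 genes of the step from motor neuron progenitor to neuron, which include Isl1, Lhx3 and the acetylcholine transporter Slc18a3, were well above background on every day 7 array, and so were all 11 neuron markers on every array. Markers of other cells were present too. All 10 floor plate markers and all 10 pluripotency markers were also above background on every array, and so were 9 of 10 mesoderm and fibroblast markers.

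The 250 bases before the transcription start are shown for 3 of the genes, a pair that was higher in knockout cells and 1 that was lower, as RefSeq gives them on GRCm38.p6. Capitals mark CCAAT (or ATTGG, the same box on the other strand) and TATAAA. Olig2 lies at chr16:91225300-91225549 on the plus strand, Dbx1 at chr7:49636836-49637085 on the minus strand and Nkx6-2 at chr7:139582798-139583047 on the minus strand.
Olig2: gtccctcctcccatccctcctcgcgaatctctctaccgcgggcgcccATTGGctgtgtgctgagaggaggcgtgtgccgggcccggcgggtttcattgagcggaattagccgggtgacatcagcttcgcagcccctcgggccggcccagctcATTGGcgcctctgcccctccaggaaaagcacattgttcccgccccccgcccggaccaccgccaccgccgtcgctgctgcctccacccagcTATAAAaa
Dbx1: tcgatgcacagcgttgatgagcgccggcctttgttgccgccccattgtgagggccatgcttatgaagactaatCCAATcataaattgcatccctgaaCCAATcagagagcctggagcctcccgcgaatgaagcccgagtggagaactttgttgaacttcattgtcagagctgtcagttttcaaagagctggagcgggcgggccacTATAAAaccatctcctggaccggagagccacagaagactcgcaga
Nkx6-2: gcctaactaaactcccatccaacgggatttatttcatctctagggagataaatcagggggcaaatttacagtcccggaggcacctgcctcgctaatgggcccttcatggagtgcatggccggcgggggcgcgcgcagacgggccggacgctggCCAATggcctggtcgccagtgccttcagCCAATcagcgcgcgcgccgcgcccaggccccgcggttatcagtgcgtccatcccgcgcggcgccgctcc

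A promoter was found for 9 of the 10 genes, in 10 entries since Pax6 has 2, and Olig1 had no entry. Both strands were searched for 5 motifs, none of which overlaps another in these windows. CCAAT stood in the promoters of 5 of the genes (Olig2, Dbx1, Nkx6-2, Pax6 and Sox1), against 33.8% of all 32851 promoters. TATAAA stood in 2 of the 10 entries, at -45 to -40 from the start in Dbx1 and at -8 to -3 in Olig2, against 12.4% of all promoters. GACCACCCA, the letters that the Shh effector GLI prefers, was in 0 of the 10 entries and in 0.225% of all promoters. The homeodomain letters TAATTA (4.84% of all) and the E-box letters CAGCTG (13% of all) were also in 0 of the 10. The CCAAT box thus stood before genes higher in knockout cells (Olig2, Dbx1, Pax6) and before genes lower in them (Nkx6-2, Sox1), and a match is only a match of letters. Olig2, Dbx1 and Nkx6-2 held 22, 12 and 26 CpG pairs, where the median promoter held 6.

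**Figure D1:**
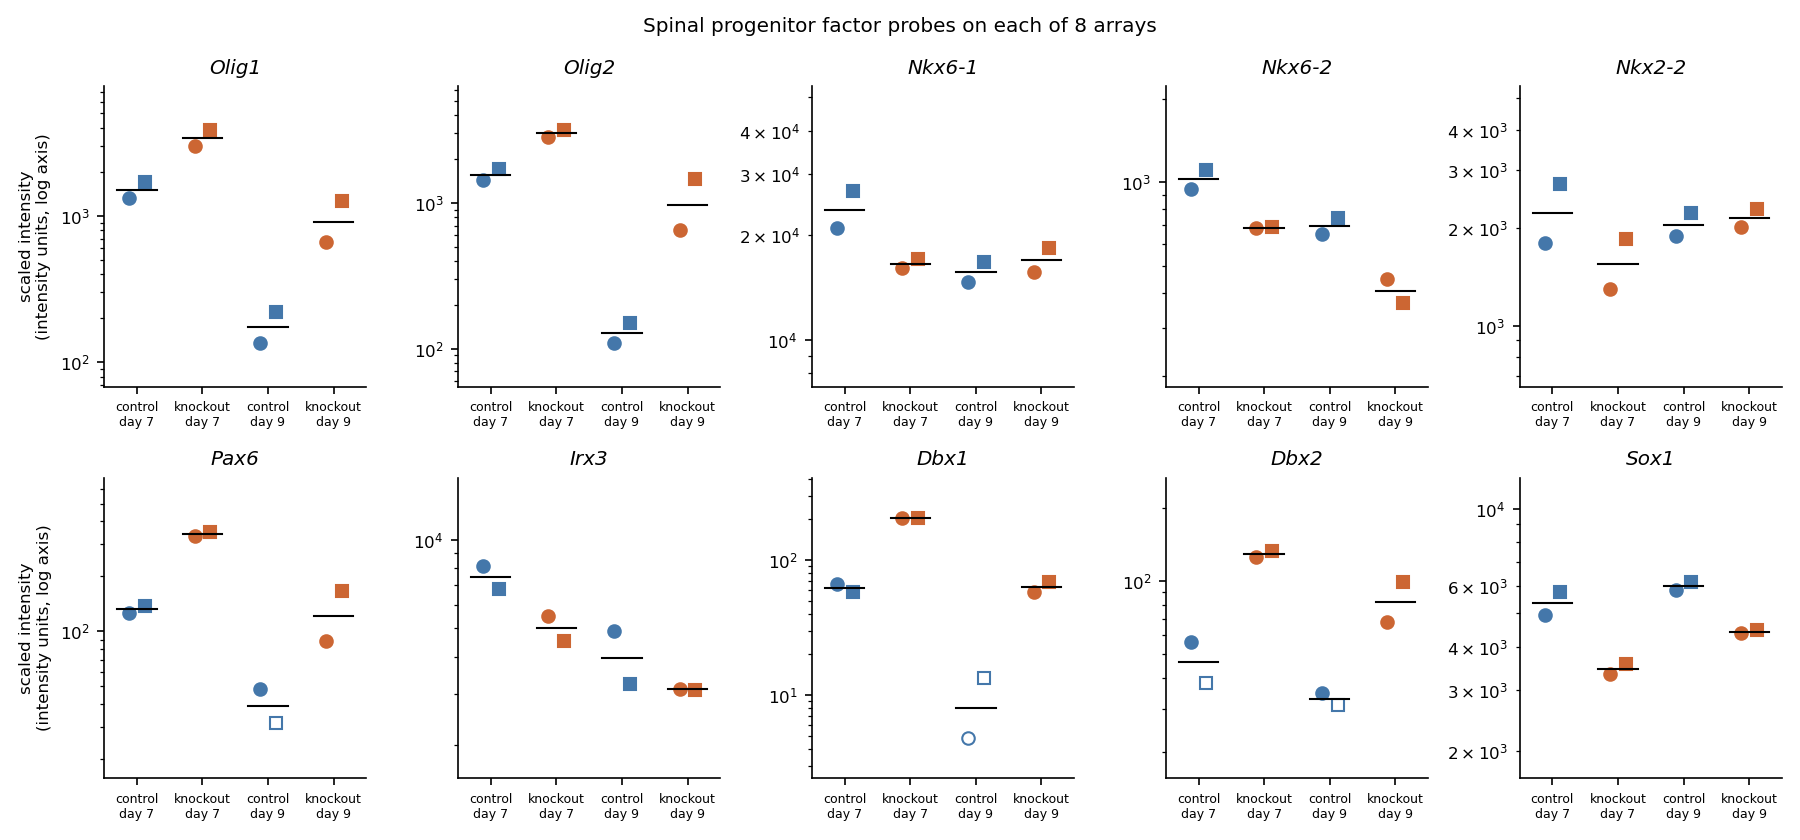
Scaled intensity of the 10 genes on each of the 8 arrays, on a log axis. Blue points are control cells and orange points knockout cells, circles are replicate 1 and squares replicate 2, open points were not well above background, and the black line is the geometric mean of a group. Olig1, Olig2, Pax6, Dbx1 and Dbx2 were higher in knockout than in control cells on both days, while Nkx6-2 and Sox1 were lower.

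Levels are given below as scaled intensity, the processed signal of a gene's probe after every array was brought to a 75th percentile of 1015.07. Probes differ in how brightly they hybridise, so levels are compared between arrays and not between genes. Changes are log2 differences ± standard error (SE) from 1 limma fit over 8 arrays, with 2 arrays a group. A gene is said to have risen or fallen where the p adjusted by Benjamini-Hochberg over all 24633 genes was under 0.05.

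The first question was what loss of Litchi did to the domain factors on day 9. Of the 10 genes, 5 were higher in knockout cells and 1 was lower past the threshold, where 5.46% of all genes tested were called (1.5% higher and 3.96% lower). The 5 were both Olig genes and 3 of the 4 class I genes, Pax6, Dbx1 and Dbx2, and the 1 was the class II gene Nkx6-2. Dbx2 passed the filter on dim probes only through the knockout groups, so it adds no support to this split by class. The median change of the 10 genes was 0.72 on the log2 scale, against -0.02 for all genes. In these bulk samples, fewer cells of a type and less RNA per cell cannot be told apart. The 2 arrays of each genotype did not overlap for 8 of the 10 genes, 5 higher and 3 lower, where this held for 59.7% of all genes (27.1% higher and 32.5% lower).

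Olig2, the basic helix-loop-helix factor that specifies motor neuron progenitors, stood at 110 and 149 in control cells on day 9 and at 649 and 1454 in knockout cells. Both knockout arrays were well above both control arrays, and they differed from each other by more than the control arrays did. The change was 2.92 ± 0.37 (adjusted p = 0.0197), a 7.59-fold higher level. Olig1, its neighbour on chromosome 16 with only the gene model Gm52261 between them, stood at 136 and 222 in control cells and at 661 and 1259 in knockout cells. The groups were again apart, and the second knockout array was the higher one for both genes. The change in Olig1 was 2.39 ± 0.37 (adjusted p = 0.0271), or 5.25-fold.

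Pax6, a class I factor of the intermediate and dorsal progenitors and of the early motor neuron domain, read 48.1 and 31.3 in control cells on day 9, the second not well above background, and 88.5 and 166 in knockout cells. The change was 1.64 ± 0.33 (adjusted p = 0.0427). The Pax6 call was narrow, since leaving out any single array ended it, with changes from 1.19 to 2.10. It was also lost with no filter on dim probes (limma, adjusted p = 0.144) and with the replicate number as a block (adjusted p = 0.0523). Dbx1, which marks the most dorsal of the ventral domains, was not well above background on either control array and read 58.2 and 68.4 in knockout cells. The control level is thus only a bound, and Dbx1 was at least 2.52-fold higher in knockout cells (fitted change 2.98 ± 0.43, adjusted p = 0.0229). Its relative Dbx2, whose domain is a little wider, read 34.8 and 31.1 in control cells, the second not well above background, and 68.2 and 99.1 in knockout cells. All 3 genes were thus dim, and in none of them did the genotypes overlap. The Dbx2 change was 1.32 ± 0.25 (adjusted p = 0.0376). Dbx2 passed the filter on dim probes only through the knockout groups, where it is high. Its call therefore adds no support to the count of 5, which is 4 without it. The same holds for its place among the 5 higher genes that did not overlap.

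For these 3 genes, whose signal was near background, the size of the change moved with the background correction. With normexp background correction the day 9 changes were 0.54 for Pax6, 0.44 for Dbx1 and 0.36 for Dbx2, with adjusted p of 0.352, 0.452 and 0.532, so none was called. Olig1 and Olig2 were the 2 of the 10 genes still called under that setting. Single arrays mattered as well, since the count of 6 was 0 without the second knockout array of day 9 and 1 without the first knockout or the first control array of that day. It was 3 without the second control array of day 9 or either knockout array of day 7, and 4 without either control array of day 7. In each of these sets the sign of the 6 changes stayed as it was.

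Irx3, the class I factor that borders the motor neuron domain on its dorsal side, did not follow the other class I genes. It stood at 4880.1 and 3228 in control cells on day 9 and at 3113 and 3093 in knockout cells. The knockout arrays were close to the lower control array, and the change of -0.36 ± 0.23 did not pass (adjusted p = 0.371, 95% interval -0.90 to 0.19).

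Among the class II factors, Nkx6-2, a homeodomain repressor of the ventral domains, fell in knockout cells on day 9. It read 652 and 745 in control cells against 448 and 367 in knockout cells, with no overlap. The change was -0.78 ± 0.16 (adjusted p = 0.0482). This call was narrow: leaving out any 1 of the 8 arrays ended it, with adjusted p from 0.06494 to 0.2299, and so did all the other settings tried but the mean of probes.

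Nkx6-1, its relative, which is needed for motor neuron identity, was not called. It stood at 14639.8 and 16792 in control cells and at 15674 and 18396 in knockout cells on day 9. The groups overlapped, and the change was 0.12 ± 0.18 (adjusted p = 0.718, 95% interval -0.31 to 0.54). Nkx2-2, which marks the domain just ventral to the motor neuron progenitors, read 1885 and 2214 in control and 2005 and 2286 in knockout cells on its brighter probe. Its change of 0.07 ± 0.26 did not pass either (adjusted p = 0.894, 95% interval -0.56 to 0.69).

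Sox1, the progenitor factor shared by all domains, stood at 5821 and 6148 in control cells on day 9 and at 4380.4 and 4455 in knockout cells. The knockout arrays were both lower, but the change of -0.44 ± 0.14 missed the threshold (adjusted p = 0.114).

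**Figure D2:**
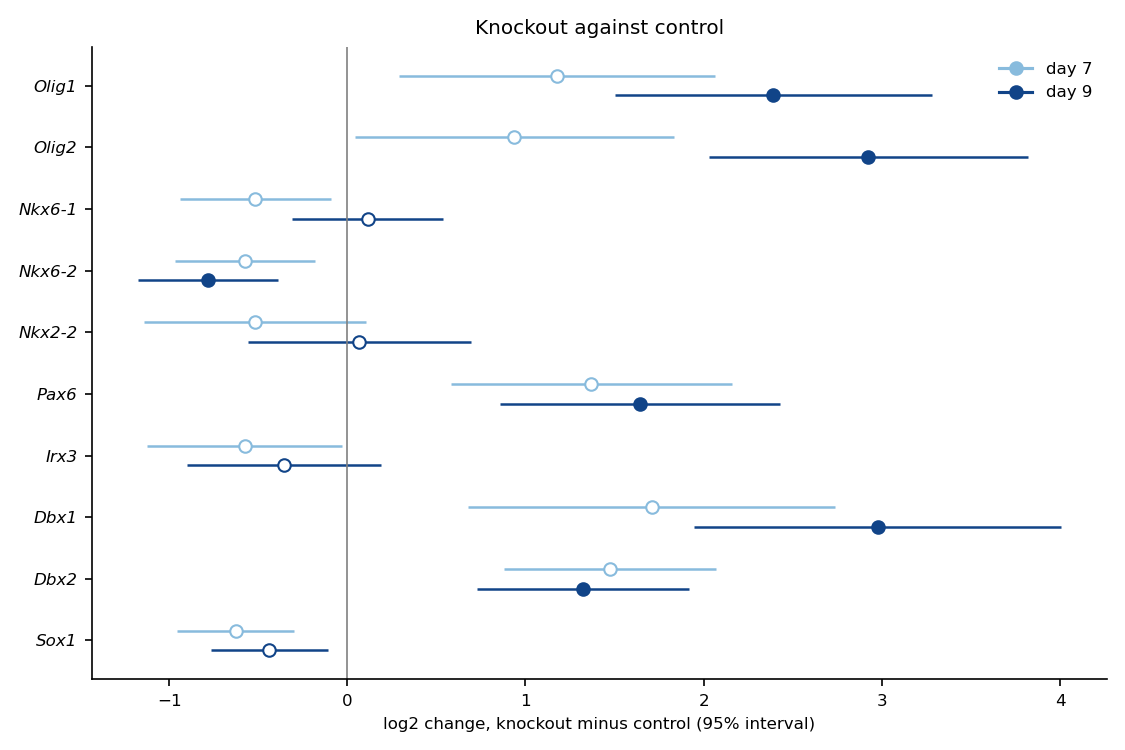
Change of each of the 10 genes in knockout against control cells, as log2 difference with its 95% interval, on day 7 and on day 9. Filled points passed an adjusted p of 0.05 and open points did not, and none was filled on day 7. Olig1, Olig2, Pax6, Dbx1 and Dbx2 lie to the right of 0 in each comparison, at fitted changes of 1.32 to 2.98 on day 9 (the size for Dbx1 is not exact), and Nkx6-2, Irx3 and Sox1 lie to the left.

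On day 7 no change passed. With limma, 0 of the 10 genes were called, where 0.215% of all genes were. At an unadjusted p under 0.05 there were 9 of the 10 genes (5 higher in knockout cells and 4 lower) and 18.9% of all genes. The arrays of the 2 genotypes did not overlap for 9 genes, 5 higher and 4 lower, where this held for 48.3% of all genes (20.5% higher and 27.8% lower). Dbx2 is among the 5 higher genes in both counts. It passed the filter only through the knockout groups, so it adds no support to either count. The median change of the 10 genes was 0.21, against -0.05 for all genes.

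Olig2 on day 7 stood at 1438 and 1706 in control cells and at 2838 and 3172 in knockout cells, a difference of 0.94 ± 0.37 (adjusted p = 0.248). Olig1 stood at 1329.6 and 1696 against 2997 and 3847, a difference of 1.18 ± 0.37 (adjusted p = 0.175). Both knockout arrays were above both control arrays for each gene. Pax6 read 127 and 137 in control cells against 334 and 349 in knockout cells, Dbx1 read 66.9 and 58.5 against 205 and 204, and Dbx2 read 56.1 and 38.3 (the second not well above background) against 125 and 133. On day 7 the 2 knockout arrays of these 3 class I genes were nearly equal and all lay above the controls. Their differences were 1.37 ± 0.33 (adjusted p = 0.119), 1.71 ± 0.43 (adjusted p = 0.127) and 1.48 ± 0.25 (adjusted p = 0.0805). The day 7 count was 1 in place of 0 without either control array of day 9, where Dbx1 was called through the smaller pooled spread (adjusted p = 0.0268).

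The genes on the other side read lower in knockout cells on day 7, also without a call. Nkx6-1 stood at 20909 and 26886 in control cells and at 16047 and 17118 in knockout cells (-0.52 ± 0.18, adjusted p = 0.199). Nkx6-2 stood at 945 and 1112 against 687 and 688 (-0.58 ± 0.16, adjusted p = 0.151). Irx3 and Sox1 were lower too. Irx3 read 8130.1 and 6810 against 5504 and 4529 (-0.58 ± 0.23, adjusted p = 0.246), and Sox1 read 4925 and 5760.5 against 3336 and 3576 (-0.62 ± 0.14, adjusted p = 0.105). Nkx2-2 was the 1 gene whose genotypes overlapped on day 7. Its brighter probe read 1797 and 2726 in control cells against 1296 and 1840.0 in knockout cells (-0.52 ± 0.26, adjusted p = 0.339).

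The mean of the knockout effects of both days sets 4 knockout arrays against 4 controls, using the same arrays as the comparisons by day. Of the 10 genes, 7 passed, 5 higher and 2 lower, where 14.8% of all genes did (5.48% higher and 9.35% lower), and the median change was 0.60 against -0.04. The 5 that rose were Olig2 (1.93 ± 0.26, adjusted p = 0.0129), Olig1 (1.78 ± 0.26, adjusted p = 0.0146), Pax6 (1.51 ± 0.23, adjusted p = 0.0158), Dbx2 (1.40 ± 0.18, adjusted p = 0.0108) and Dbx1. For Dbx1 the fitted mean of 2.34 ± 0.30 (adjusted p = 0.0118) includes day 9, where the control level is only a bound, so its size is not exact. The limit on Dbx2 from the filter holds here too. The 2 that fell were Nkx6-2 (-0.68 ± 0.12, adjusted p = 0.0189) and Sox1 (-0.53 ± 0.10, adjusted p = 0.0217). Irx3 (-0.47 ± 0.16, adjusted p = 0.0985), Nkx2-2 (-0.23 ± 0.18, adjusted p = 0.429) and Nkx6-1 (-0.20 ± 0.13, adjusted p = 0.307) did not pass. With normexp correction 4 were called, and Pax6 (0.75), Dbx1 (0.70) and Dbx2 (0.54) were no longer among them. Without the second knockout array of day 9 the count was also 4, with Dbx1 (adjusted p = 0.0521), Nkx6-2 (adjusted p = 0.0675) and Sox1 (adjusted p = 0.0737) lost. Leaving out any of the 8 arrays but the first control array of day 7 ended the Sox1 call, and Nkx6-2 was also lost without the second control array or either knockout array of day 7.

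The second probes of Nkx2-2 and Sox1 gave other sizes. The dimmer Nkx2-2 probe read 1490.2 and 1371 in control cells against 733 and 854 in knockout cells on day 7, and its mean change over both days was -0.53 ± 0.11 (adjusted p = 0.0300 over 33189 probes). So this probe was called lower and the brighter one was not. The dimmer Sox1 probe changed by -0.25 ± 0.25 (adjusted p = 0.511 over probes), without a call. With the mean of both probes in place of the brighter one, the Sox1 change was -0.39 (adjusted p = 0.145).

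Whether the knockout effect differed between the days was tested as an interaction, and 0 of the 10 genes passed with limma, where 0.00406% of all genes did. At an unadjusted p under 0.05 there were 2 of the 10 genes, Olig2 and Nkx6-1, and 6% of all genes (1479). Olig2 had the largest fitted difference, with a knockout effect 1.99 ± 0.53 larger on day 9 than on day 7 (adjusted p = 0.751, 95% interval 0.72 to 3.25). The difference for Olig1 was 1.21 ± 0.52 (adjusted p = 0.834, 95% interval -0.04 to 2.47). That for Dbx1 was fitted at 1.27 ± 0.61 (adjusted p = 0.847), with a day 9 control level that is only a bound. The difference for Pax6 was 0.27 ± 0.46 (adjusted p = 0.953) and for Dbx2 -0.16 ± 0.35 (adjusted p = 0.968). No gene was thus shown to respond differently on the 2 days.

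The second question was how the domain factors changed from day 7 to day 9 within each genotype. These comparisons use the same arrays as those between genotypes. In control cells 4 of the 10 genes fell and 0 rose, where 7.36% of all genes were called (3.26% lower and 4.11% higher). In knockout cells 4 also fell and 0 rose, against 8.31% of all genes (4.17% lower and 4.14% higher). Olig1, Olig2 and Pax6 were in both sets, with Dbx1 added in control and Nkx6-2 in knockout cells. The median change of the 10 genes was -0.75 in control and -0.72 in knockout cells, where that of all genes was -0.12 in each. The arrays of the 2 days did not overlap for 9 genes in control cells, 8 lower on day 9 and Sox1 higher, where this held for 54.8% of all genes (35.9% lower and 18.9% higher). In knockout cells they did not overlap for 9 genes either, 7 lower and Nkx2-2 and Sox1 higher, where this held for 58% of all genes (35.9% lower and 22.1% higher).

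**Figure D3:**
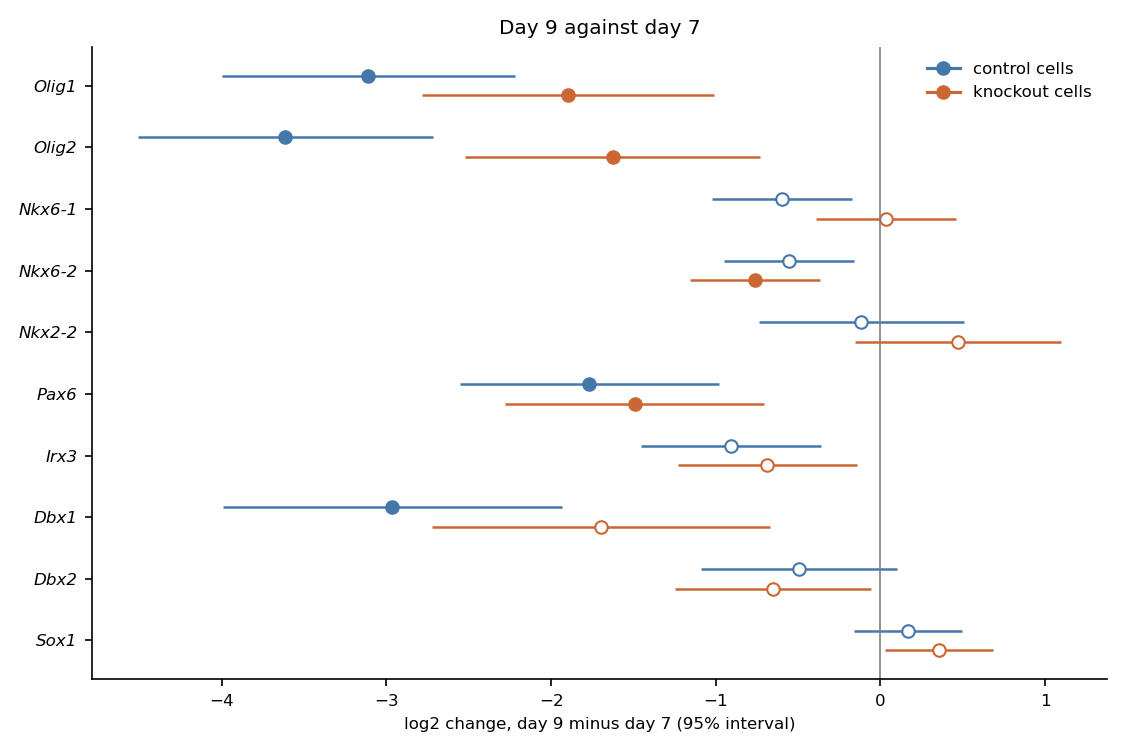
Change of each of the 10 genes from day 7 to day 9, as log2 difference with its 95% interval, in control and in knockout cells. Filled points passed an adjusted p of 0.05. The Olig genes had the lowest values, with -3.61 for Olig2 and -3.11 for Olig1 in control cells, while Sox1 lies just right of 0 in both genotypes.

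Olig2 fell by 3.61 ± 0.37 on the log2 scale in control cells (adjusted p = 0.00842) and by 1.63 ± 0.37 in knockout cells (adjusted p = 0.0481). The Olig2 call in knockout cells was lost with quantile normalization, the array median, normexp, the authors' table and no filter. The limma adjusted p was 0.0514 to 0.142 in these settings. With an array left out, the Olig2 change in knockout cells was -2.21 to -1.05. The call was then kept only where the second knockout array of day 9 was the one left out. Olig1 fell by 3.11 ± 0.37 in control (adjusted p = 0.0110) and by 1.90 ± 0.37 in knockout cells (adjusted p = 0.0313). On day 9 the knockout arrays of both genes were thus below their own day 7 level. For Olig2 the second knockout array of day 9, at 1454, was inside the range of the day 7 control arrays, and the first, at 649, was below it. For Olig1 both knockout arrays of day 9 were below the day 7 controls.

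Pax6 fell by 1.77 ± 0.33 in control cells (adjusted p = 0.0315) and by 1.49 ± 0.33 in knockout cells (adjusted p = 0.0427). Dbx1 was at least 2.50-fold lower on day 9 than on day 7 in control cells (adjusted p = 0.0183), since neither day 9 array was well above background. In knockout cells it changed by -1.70 ± 0.43, which did not pass (adjusted p = 0.0629). Dbx2 changed by -0.50 ± 0.25 (adjusted p = 0.262) in control and -0.65 ± 0.25 (adjusted p = 0.161) in knockout cells. With normexp correction the changes in control cells were -0.69 for Pax6 (adjusted p = 0.236) and -0.52 for Dbx1 (adjusted p = 0.385), neither called. The Pax6 call in knockout cells was lost with quantile normalization, the array median, normexp, the authors' table, no filter and the replicate block (adjusted p from 0.0534 to 0.132). Leaving out any array of day 7 or the first knockout array of day 9 ended it too. With an array left out, that Pax6 change was -1.95 to -1.04. Irx3 changed by -0.91 ± 0.23 (adjusted p = 0.0651) in control and -0.69 ± 0.23 (adjusted p = 0.120) in knockout cells.

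Nkx6-2 fell by 0.76 ± 0.16 in knockout cells (adjusted p = 0.0403) and changed by -0.56 ± 0.16 in control cells (adjusted p = 0.0934). Leaving out any 1 of the 8 arrays ended the Nkx6-2 call in knockout cells (adjusted p from 0.0544 to 0.179), and so did the array median, normexp and no filter. Nkx6-1 changed by -0.60 ± 0.18 in control (adjusted p = 0.0948) and 0.03 ± 0.18 in knockout cells (adjusted p = 0.917, 95% interval -0.39 to 0.46). Nkx2-2 changed by -0.12 ± 0.26 (adjusted p = 0.819) and 0.47 ± 0.26 (adjusted p = 0.306). The class II genes thus gave 1 call in 6. Sox1 changed by 0.17 ± 0.14 (adjusted p = 0.488) in control and 0.36 ± 0.14 (adjusted p = 0.164) in knockout cells, so the pan-neural factor was not called in either genotype.

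The calls by day also leaned on single arrays. In control cells the count of 4 was 0 without the second control array of day 7 and 2 without the first. In knockout cells it was 0 without either knockout array of day 7 or the first knockout array of day 9, and 1 without either control array of day 7. Scaling mattered in knockout cells, where 2 were called with quantile normalization and 1 with the median in place of the 75th percentile. All of the 8 changes kept their sign in these sets.

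Since these factors act in opposed pairs, the change of their ratio was set out by replicate number; a scaling of the array cancels within it, and no test was made. On day 7 the ratio of Pax6 to Nkx2-2 was higher in knockout cells by 1.87 log2 units in replicate 1 and 1.91 in replicate 2. The ratio of Olig2 to Irx3 was higher by 1.54 and 1.48, that of Dbx2 to Nkx6-1 by 1.54 in replicate 1 (in replicate 2 the control signal of Dbx2 was not well above background), and that of Dbx1 to Nkx6-2 by 2.07 and 2.50. Each of these ratios was therefore shifted towards its first named gene. The Dbx2 ratio adds no support on either day, since Dbx2 passed the filter only through the knockout groups. On day 9 the Olig2 to Irx3 ratio was higher by 3.21 and 3.35, the Pax6 to Nkx2-2 ratio by 0.79 in replicate 1 and the Dbx2 to Nkx6-1 ratio by 0.87 in replicate 1. In replicate 2 the control signal of Pax6 and of Dbx2 was not well above background on day 9, so no ratio is given. The ratio of the 2 Olig genes moved least, by -0.19 and -0.29 on day 7 and by 0.29 and 0.78 on day 9.

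Profiles over the 8 arrays were then compared among 15030 genes with a symbol, by the root mean square difference of log2 values after each gene was centred on its own mean. The gene most like Olig2 was Olig1, and the reverse, at 0.24. Cryge, a lens gamma crystallin, came next for both (0.43 for Olig2 and 0.33 for Olig1), followed by Dbx1 (0.48 and 0.42). For Dbx1 the nearest were Olig1 (0.42), Olig2 (0.48) and Cryge (0.54). The Dbx1 profile holds 2 control arrays of day 9, and that of Cryge 1, that were not well above background, so these distances and their order are loose. Pax6 was nearest to Aldh1a7 (0.21), an aldehyde dehydrogenase, Nfe2 (0.22), a leucine zipper factor of blood cells, and another gamma crystallin, Crygf (0.22). Dbx2 was nearest to Ccdc69 (0.24), the retinoic acid synthesis enzyme Aldh1a2 (0.24) and Emid1 (0.25). Pax6, Nfe2, Crygf, Dbx2 and Ccdc69 also had control signals that were not well above background, so their distances are loose as well.

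The genes with small changes had closer neighbours, as any gene that varies little will. Nkx6-2 was nearest to Met (0.11), a growth factor receptor, and to the neuronal microtubule genes Stmn4 (0.12) and Dcx (0.12). Nkx6-1 was nearest to Nkx1-2 (0.08), Ffar3 (0.08) and Sycn (0.10), and Nkx2-2 to Fabp7 (0.10), Ly6h (0.12) and Adamtsl2 (0.13). Irx3 was nearest to Zfyve28 (0.08), Dusp1 (0.08) and Ebf3 (0.09), and Sox1 to Neurl1b (0.05), Plekhg3 (0.06) and Fam20c (0.06). These 8 arrays hold only 4 groups, so such a likeness describes a pattern over genotype and day.

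Other genes of the same system were set beside the 10, from fixed lists, on day 9. Of 9 measured further ventral domain factors, 3 rose in knockout cells and 0 fell, with a median change of 0.66. Sp8 (1.99 ± 0.31, adjusted p = 0.0275) had the smallest p. Of 5 measured dorsal domain factors 0 were called by limma, with a median of 0.05. The smallest p in that list belonged to Msx2 (-0.65 ± 0.19, adjusted p = 0.0953) and Gdf7 (0.98 ± 0.52, adjusted p = 0.285), so the dorsal factors measured here gave no call in either direction. Pax3, Pax7, Gsx1, Gsx2 and Atoh1 were above background on 4 or fewer arrays, and Ptf1a on 0.

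Of 10 genes that respond to Shh signalling, 0 passed with limma on day 9, but all 10 had values above 0, with a median of 0.66. The receptor Ptch1 changed by 0.90 ± 0.26 (adjusted p = 0.0939) and the effector Gli1 by 1.42 ± 0.41 (adjusted p = 0.0976). Over both days 2 of the 10 were higher, Gli2 (1.06 ± 0.27, adjusted p = 0.0474) and Gli1 (1.14 ± 0.29, adjusted p = 0.0479), and 0 were lower. Of 12 pan-neural progenitor genes, 3 rose on day 9 and 0 fell, with a median of 0.27. These included Zic1 (1.13 ± 0.16, adjusted p = 0.0209) and the Notch target Hes5 (1.85 ± 0.34, adjusted p = 0.0357). Sox1, a gene of the same kind, was not among those that rose.

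Of 12 genes of the step from motor neuron progenitor to neuron, 3 rose and 1 fell on day 9, with a median of 0.45. The factors Neurod1 (2.04 ± 0.28, adjusted p = 0.0209) and Ebf2 (2.02 ± 0.30, adjusted p = 0.0238), both of newly born neurons, had the smallest p. From day 7 to day 9, 7 of these 12 genes fell in control cells and 4 in knockout cells. The Olig genes fell in both, Olig2 only narrowly in knockout cells. Of 10 measured interneuron genes, 1 fell and 0 rose on day 9, with a median of -0.38. Lhx1, also in this list, changed by -0.67 ± 0.15 without a call (adjusted p = 0.0568). Over both days 3 of the 10 fell and 0 rose. En1 and Evx2, which mark the descendants of ventral domains, were not well above background on any array.

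**Figure D4:**
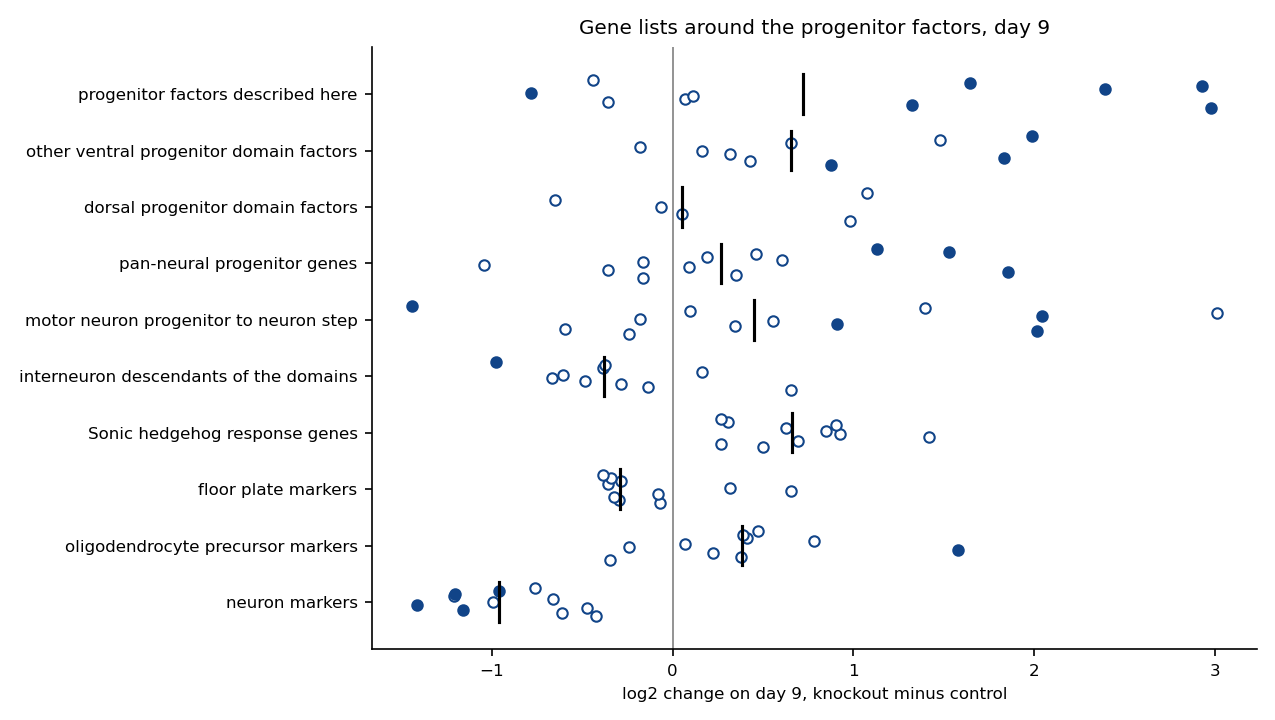
Change in knockout against control cells on day 9 for the genes of each list, as log2 difference, with 1 point a gene. Filled points passed an adjusted p of 0.05 and the black line is the median of a list. The neuron markers all lie below 0 and the 10 Shh response genes all lie above 0.

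Markers of cell types moved with genotype alongside the domain factors, and their part in the results above was not tested. All 11 neuron markers read lower in knockout cells on day 9, with 4 calls and a median of -0.96, led by Stmn2 (-1.20 ± 0.13, adjusted p = 0.0162) and Gap43 (-1.16 ± 0.15, adjusted p = 0.0201). Their summed scaled intensity, in which the brightest probes weigh most, was 259189 to 324763 in control and 142477 to 147615 in knockout cells on day 9. On day 7 it was 416758 to 477856 and 296314 to 315070. On both days the neuron markers thus read lower where Olig1, Olig2, Pax6 and Dbx1 read higher. On day 7 the median of the 11 markers was -0.47, and 0 of them and 0 of the 10 domain factors were called.

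Oligodendrocyte precursors also express Olig1 and Olig2. Of 10 measured markers of that type, 8 were above 0 on day 9, with a median of 0.38. Among the 10, 1 rose and 0 fell. That 1 was Gpr17 (1.58 ± 0.23, adjusted p = 0.0238). Their sum, in which the brightest probes weigh most, was 9795 to 11091 in control and 10465 to 10876 in knockout cells on day 9. The list includes Nkx2-2, which is also 1 of the 10 genes followed here. Whether oligodendrocyte precursors had a part in the Olig changes was not tested. On day 7 the sum was 12381 to 13128 and 10438 to 10827. Enpp6, a mark of newly forming oligodendrocytes, was not well above background on any array.

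Nkx2-2 and Nkx6-1 are also expressed in pancreatic endocrine cells, and floor plate cells are the source of Shh. Of 7 measured pancreatic and endoderm markers, 1 rose and 1 fell on day 9, Neurod1 and Sst (somatostatin), and no array had Pdx1 well above background. Neurod1 is also on the list of the step from motor neuron progenitor to neuron. Of 10 floor plate markers 0 were called on day 9, with a median of -0.29 and Shh itself at -0.36 ± 0.13 (adjusted p = 0.155). On day 7 all 10 were below 0, with a median of -0.60 and 0 calls. Over both days 2 fell and 0 rose, Shh (-0.61 ± 0.09, adjusted p = 0.0158) and Slit1 (-0.58 ± 0.10, adjusted p = 0.0186). From day 7 to day 9, 8 of the 10 floor plate markers rose and 1 fell in control cells, and 9 rose and 1 fell in knockout cells. In both it was Nkx2-9 that fell (-3.47 ± 0.25 in control and -2.56 ± 0.25 in knockout cells). That gene is also on the list of further ventral domain factors. The floor plate sum, in which the brightest probes weigh most, was higher on day 9 in both genotypes. In control cells it was between 132632 and 135325 on day 7 and between 239456 and 285616 on day 9, and in knockout cells between 89272 and 91137 and between 228381 and 245954. Mesoderm and fibroblast markers summed to 70359 to 75124 in control and 113736 to 133335 in knockout cells on day 9, with 2 of 9 measured genes called higher. Those were Pdgfrb (1.21 ± 0.19, adjusted p = 0.0274) and Col1a1 (1.51 ± 0.30, adjusted p = 0.0418).

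Pluripotency markers also moved with genotype. On day 9 their median change was -1.14, with 9 of 10 below 0, and 1 fell, Dppa5a (-1.82 ± 0.29, adjusted p = 0.0275). Over both days 7 of the 10 fell and 0 rose, with all 10 below 0 and a median of -1.10. Their sum on day 7 was between 5945 and 7714 in control cells and between 3447 and 4203 in knockout cells, and on day 9 between 5387 and 7994 and between 3047 and 3217. Genotypes were thus apart on both days, as they were for Olig1, Olig2, Pax6 and Dbx1 in the other direction.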

How the data were processed

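Cy3-labelled cRNA of total RNA was hybridised to Agilent SurePrint G3 mouse arrays. Agilent Feature Extraction 10.5.1 turned the images into values, as the submitters' processing notes state. The processed signal is, per the file headers, an intensity with background subtracted and spatial trends removed. Log2 values of the same arrays, deposited by the authors as 1 table, served as an alternative (r of 0.9979 or more with the log2 signal of the same array, medians of 5.80). The offset behind its baseline is not given in the sources used here.

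Control spots (3671 of 62976) and spots marked as outliers (104 to 166 an array) were left out, and 0 spots were saturated. Spots of a probe were averaged as log2 intensity minus the 75th percentile of the array. A probe was kept (33189 of 55681) if any group had it well above background on both arrays, and the brightest kept probe stood for a gene. Names came from the RefSeq accession of a probe and a gene table on GRCm38.p6, which named 47.2% of probes and 15038 of the 24633 genes tested. Positions in the array files are on mm9, and none is printed. Mnx1 was not analysed here.

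All 8 arrays shared 1 model of 4 group means, fitted with limma 3.58.1 (lmFit and eBayes, two-sided) under R 4.3.3, with 4 residual and 2.53 prior degrees of freedom; it was tested on simulated data. P-values were adjusted by Benjamini-Hochberg over all genes tested, and intervals are 95% intervals. For "at least" folds, each array of the dim group was given its own signal or that of the dimmest probe well above background, whichever was higher.

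The 10 genes and the 14 gene lists beside them were chosen with earlier results of these data known. Named genes are the 10, the 2 genes of a list with the smallest p in the comparison described, and the 3 genes nearest each of the 10 in profile. Genes not well above background and those that make up a count of 1 or 2 are named besides, after their values were seen. Some genes that this rule names are not reported here. The alternatives were quantile normalization, the array median, normexp, the authors' table, no filter, the mean of probes, the replicate block, and each array left out. The files hold no mean signal column, so normexp (offset 50) used the median signal. Replicate numbers, which coincide with the row of the slide for all 8 arrays, were not taken as pairs, since the labels name no shared culture.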

Additional observations from a re-analysis of the deposited data

How the results depend on the processing

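Leaving out each array in turn gave between 0 and 4 of the 10 genes for knockout against control on day 9 (6 with all arrays), 0 to 1 on day 7 (0), 4 to 7 for the mean of both days (7), 0 to 5 for day 9 against day 7 in control cells (4) and 0 to 3 in knockout cells (4). With normexp background correction the counts were 2 on day 9, 4 for the mean, 2 for the control days and 1 for the knockout days. With no filter on dim probes, so that more genes share the adjustment, all were 0. In knockout cells between days, quantile normalization and the authors' table each gave 2 and the array median 1.

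Over all genes, the filter, the background correction and single arrays moved the counts. On day 9 the 1346 calls became 322 with normexp, 1 without the filter and 7 to 804 with an array left out. On day 7 the 53 became 21, 0 and 0 to 125, and for the mean the 3653 became 1678, 220 and 450 to 2716. In control cells between days the 1814 became 682, 75 and 8 to 1306, and in knockout cells the 2047 became 871, 480 and 438 to 1996. The 1 gene of the interaction was lost in most settings. The share of calls that were higher on day 9 was 27.49% here, 36.89% with quantile normalization and 65.12% with the array median, which moved the median of all genes from -0.02 to 0.19. For the mean it was 36.98%, 48.13% and 71.55%.

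Changes that turned sign were all uncalled. For knockout against control on day 9, Nkx2-2 was -0.070 with the mean of probes and -0.048 to 0.18 with an array left out, and Nkx6-1 was -0.00046 to 0.23. Between days with an array left out, Nkx2-2 was -0.42 to 0.19 in control cells and Nkx6-1 was -0.081 to 0.15 in knockout cells. In the interaction, normexp gave -0.53 for Dbx1 and -0.42 for Pax6. With an array left out, Dbx2 was -0.43 to 0.12, Irx3 -0.078 to 0.52 and Pax6 -0.18 to 0.73. The cause was not tested.

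With the replicate number as a block, 4 of the 10 genes were called on day 9, where Nkx6-2 (adjusted p = 0.0506) and Pax6 (adjusted p = 0.0523) were lost. The block gave 8 for the mean (Irx3 added), 6 in control cells between days (Irx3 and Nkx6-1 added) and 3 in knockout cells. Over all genes it gave 102 calls on day 7 and 2031 on day 9. Deviations of the replicate numbers correlated at -0.248 to 0.464 between groups.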

Other observations

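The lens crystallins near Olig2 and Pax6 in profile were dim but measured. Cryge read 174 and 168 in control and 489 and 363 in knockout cells on day 7, and 27.7 and 28.5 (the second not well above background) against 85.9 and 168 on day 9. It rose by 2.10 on the log2 scale in knockout cells on day 9 (limma, adjusted p = 0.0251). Crygf read 32.3 and 44.3 against 122 and 118 on day 7, and was not well above background on either control array of day 9. Its mean change over both days was 1.51 (adjusted p = 0.0131). The gamma crystallins are close copies of each other, so their probes may share targets.

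Aldh1a2, which makes retinoic acid, stood at 3457 and 2966 in control and at 6855 and 7050.3 in knockout cells on day 9, higher by 1.12 (adjusted p = 0.0201). Its relative Aldh1a7 was higher by 1.85 (adjusted p = 0.0137). Dcx, a microtubule protein of young neurons and one of the genes nearest Nkx6-2, stood at 22000 and 21236 in control and at 10951 and 10333 in knockout cells, a change of -1.02 (adjusted p = 0.0184).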
